A study of Saccharomyces cerevisiae with 44 samples.

Results

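The 33 genes described here encode aminoacyl-tRNA synthetases of the budding yeast Saccharomyces cerevisiae, 20 of them cytosolic enzymes and 13 mitochondrial ones. They were chosen by their systematic names from 6692 yeast genes in the deposited table, and all 33 passed the filter of a mean of at least 1 RPKM over 44 libraries (reads per kilobase of gene, relative to the size of the library). RNA came from strain CEN.PK122 in continuous culture on medium with 1% glucose, where respiration rises and falls in the periodic pattern called the yeast metabolic cycle. In the fast cycling condition medium was exchanged at 0.12 to 0.13 volumes per hour, and sampling every 13 min gave 20 libraries over 2 cycles of 10 time points. In the slow cycling condition the exchange was 0.045 to 0.05 volumes per hour, and sampling every 36 min gave 24 libraries over 2 cycles of 12 time points. The labels name no replicate cultures, no mutant allele and no drug, so each p-value rests on libraries of 1 culture per condition. For the time point contrasts and the F tests given below, the spread is that between the 2 cycles at the same time point. For the mean level it is the spread over all libraries of a condition, the oscillation included. For the cosine ranges it is the distance of the values from the fitted cosine. A time point is given below by its number in the cycle, and its value is the mean ± SD of the 2 cycles (n = 2) unless a library is named. The starts of the conditions are not aligned with each other.

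An aminoacyl-tRNA synthetase joins an amino acid to the tRNAs that carry its anticodons, the step that fixes the genetic code. Yeast makes proteins in the cytosol and, for a few subunits of the respiratory chain, inside mitochondria, and most amino acids have a separate nuclear gene for the enzyme of each compartment. Some genes, among them ALA1, GRS1, HTS1 and VAS1, give both enzymes from alternative starts of translation. The cytosolic genes described here serve 19 amino acids, since FRS1 and FRS2 encode the subunits of the phenylalanine enzyme, and the mitochondrial genes serve 13. The metabolic cycle is known for the periodic transcription of genes for the cytosolic and for the mitochondrial ribosome, at different times.

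In short, transcripts of the cytosolic enzymes were highest at time point 8 of 10 in the fast condition for 19 of 20 genes and at time point 12 of 12 in the slow condition for 20 of 20. Centred on each gene's mean, the mitochondrial median was low over fast time points 4 to 8, at -0.72 to -0.61 on the log2 scale. Under the authors' scaling the mitochondrial transcripts were highest 1 to 3 samples after the cytosolic maximum in both conditions. The maximum of 6 of 13 (scaled to the control RNAs) or 5 of 13 (median-of-ratios scaling) was at fast time point 2, which is later. The median gene moved 5.31-fold (cytosolic) and 3.80-fold (mitochondrial) between its highest and lowest time point in the fast condition, and 5.56-fold and 4.92-fold in the slow condition. Over all 5820 genes tested these medians were 2.20-fold and 2.23-fold.

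All 13 mitochondrial genes had at least 1 match to the letters TGTANATA in the 200 bases after their stop codon, read on the gene strand. TGTANATA is the core of the element bound by Puf3, an RNA-binding protein known for binding messages of mitochondrial proteins made in the cytosol. Of 5986 genes with such a window, 14.1% held a match, as did 4 of the 20 cytosolic genes (ALA1, GLN4, GUS1 and CRS1), 64 of 66 genes of the mitochondrial ribosome and 6 of 138 genes of the cytosolic ribosome. The match closest to the stop codon is shown, because a match is the feature that all 13 genes share. For MSF1 the farther match (TGTAAATA) is shown instead, and the closer one (TGTATATA) stands in lower case in the bases before it. Each line gives 30 bases with the 8 bases of the match in capitals, taken from the RefSeq genome R64 at the coordinates of build sacCer3. These are sequences of the reference strain, not of CEN.PK122.
MSD1 (chrXVI:357730-357759, + strand): taggtttttctTGTAAATAttatacctatt
MSE1 (chrXV:265113-265142, + strand): caatagggtcaTGTAAATAcgtcatataca
MSF1 (chrXVI:658979-659008, + strand): tgtatatatctTGTAAATActttgtcaggt
MSK1 (chrXIV:490131-490160, + strand): gccaatgctttTGTAAATAaatcagacata
MSM1 (chrVII:840787-840816, - strand): acttactgcacTGTAAATAttaacttaagt
MSR1 (chrVIII:284758-284787, - strand): atttataaacaTGTAAATAgaagaaagttt
MST1 (chrXI:77214-77243, - strand): caaacttgcccTGTAAATAaaaggatacga
MSW1 (chrIV:1005165-1005194, + strand): tgcaaacgcaaTGTAAATAataatacagtt
MSY1 (chrXVI:366497-366526, + strand): atgcactgactTGTAAATAagattataaac
NAM2 (chrXII:882016-882045, - strand): ccactagtgctTGTAAATAgttaaatatta
ISM1 (chrXVI:475957-475986, - strand): tgtacctttccTGTATATAaagaatgccaa
DIA4 (chrVIII:129125-129154, + strand): taagaaaatctTGTAAATAtgtaatcttat
SLM5 (chrIII:160634-160663, - strand): aagaccatcctTGTAAATAtaataatgtag

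The matches shown start between 16 bases (DIA4) and 92 bases (SLM5) after the stop codon. In 12 of the 13 genes at least 1 match had A as its free base (TGTAAATA), a form found after 4.28% of all genes, after none of the 20 cytosolic synthetase genes and after 36 of 66 genes of the mitochondrial ribosome. This stricter form was chosen after the matches were seen. ISM1, the mitochondrial isoleucine enzyme, was the exception and had TGTATATA. MSF1, MSK1 and NAM2 had 2 matches each. All 4 cytosolic genes with a match had TGTATATA. A match is a string of letters in a window and says nothing by itself of binding.

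The window from 250 bases before to 50 bases after the start codon held other short motifs, searched on both strands. The core of the ribosomal RNA processing element, AAAATTTT, which reads the same on both strands, was found at 12 of 20 cytosolic genes, at none of 13 mitochondrial genes and at 9.02% of 5985 promoters. It is shown with 11 bases on each side for 6 genes described below, on the gene strand.
FRS2 (chrVI:95230-95259, - strand): aacagaaaaaaAAAATTTTtctgtttttct
WRS1 (chrXV:137875-137904, - strand): caaaacgttgaAAAATTTTttttagtcatt
TYS1 (chrVII:867602-867631, - strand): tacaaagtagaAAAATTTTatgaaaattaa
YDR341C (chrIV:1153733-1153762, - strand): gcgaagcgaaaAAAATTTTtagcttcaatt
CRS1 (chrXIV:182735-182764, + strand): catcgcaataaAAAATTTTcagcgcgggtg
THS1 (chrIX:212336-212365, + strand): tatcttgctaaAAAATTTTtttcgaggaat

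The core of the site of Gcn4, TGACTC, was found at 8 of 20 cytosolic genes, at none of 13 mitochondrial genes and at 7.99% of promoters. Gcn4 is the activator of amino acid biosynthesis genes under amino acid starvation, and 4 matches in the gene's own direction are shown, among them that of KRS1, the gene with the largest range.
KRS1 (chrIV:525295-525322, + strand): gaatgatgaaaTGACTCttaatgaactt
ALA1 (chrXV:949140-949167, - strand): attaaggaactTGACTCtttctttcaag
THS1 (chrIX:212284-212311, + strand): tactgtttaaaTGACTCttaccttgtga
ILS1 (chrII:84347-84374, - strand): cgaaacaatgaTGACTCttaagcatgaa

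The PAC core GATGAG was at 7 of 20 cytosolic genes, 1 of 13 mitochondrial genes (MSE1) and 20.4% of promoters, and in THS1 and WRS1 the match overlaps the start codon. The CCAAT box was at 8 cytosolic genes, 3 mitochondrial genes (MSF1, MSM1 and MSY1) and 43.3% of promoters. YDR341C, the cytosolic arginine enzyme, THS1, the threonine enzyme, and CRS1, the cysteine enzyme, each held PAC, AAAATTTT and TGACTC. CDC60 (leucine) and MES1 (methionine) held none of the 4 promoter motifs in this window.

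**Figure D1:**
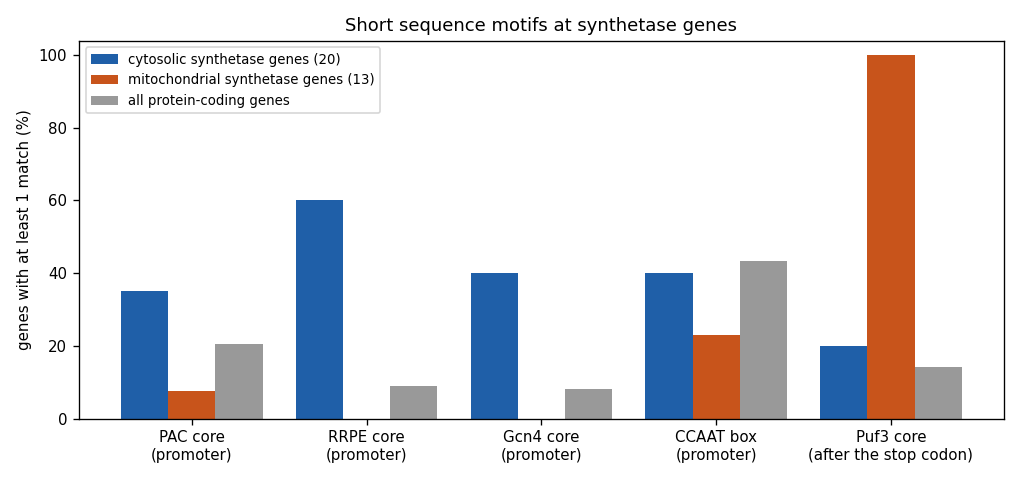
Share of genes with at least 1 match to each motif, in percent, for 20 cytosolic synthetase genes, 13 mitochondrial synthetase genes and all protein-coding genes with a window. The Puf3 core stands at 100% of the mitochondrial genes against 14.1% of all genes, and the RRPE and Gcn4 cores stand at 0% of the mitochondrial genes.

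The libraries held 7.60 to 19.67 M reads in the fast condition (median 11.24) and 6.45 to 13.11 M in the slow condition (median 10.08). The lowest number of reads behind any member's value was 109 (MSW1, slow time point 6), for which counting error alone is 9.58%, and the highest was 15602 (THS1). Because RPKM gives shares of a library, a rise of abundant messages lowers all other values. The external control RNAs added to each sample took 0.433% to 1.60% of gene reads in the fast libraries and 0.679% to 1.27% in the slow ones, and what their spread contributes to the results below was not tested beyond the control-scaled values given. The cytosolic synthetase genes together took between 0.263% (library 13) and 1.30% (library 8) of gene reads in the fast condition and between 0.303% (library 2) and 1.44% (library 12) in the slow condition. The mitochondrial genes took between 0.0539% (library 8) and 0.214% (library 1) in the fast condition and between 0.0507% (library 7) and 0.256% (library 1) in the slow condition.

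**Figure D2:**
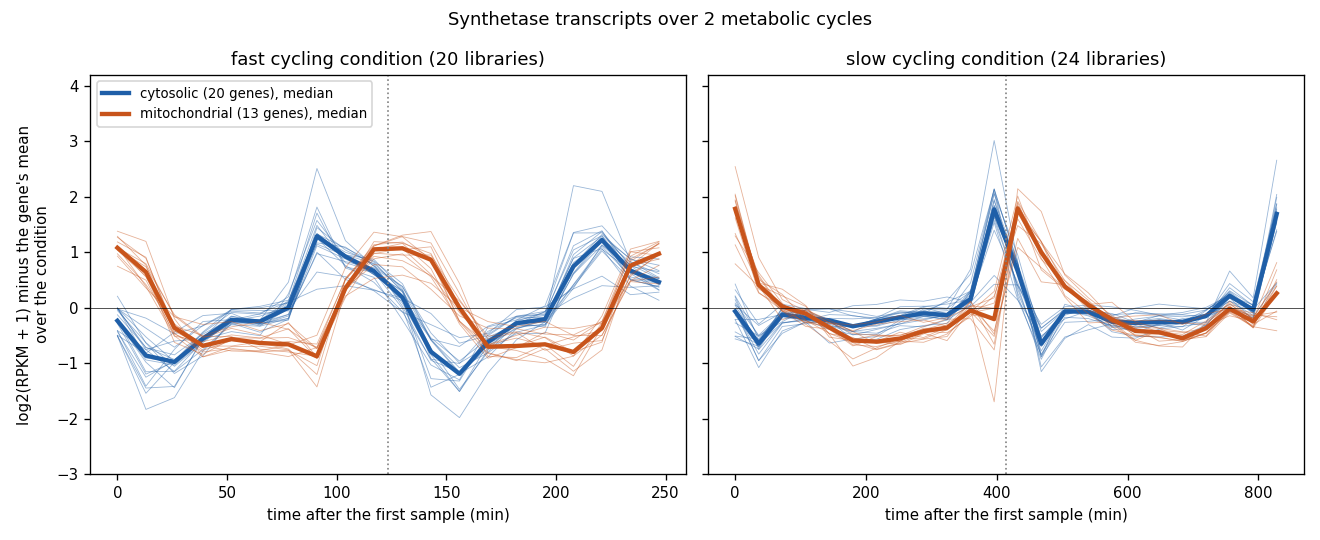
Time in minutes after the first sample against log2(RPKM + 1) minus each gene's mean over the condition. Thin lines are single genes, thick lines the medians of 20 cytosolic and 13 mitochondrial genes, and the dotted line parts the 2 cycles. The cytosolic median is highest at libraries 8 and 18 of the fast and 12 and 24 of the slow condition, and the mitochondrial median is highest after it.

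Cycling was tested per condition with JTK, an exact rank test, with Benjamini-Hochberg adjustment over 5820 genes. In the fast condition all 20 cytosolic and all 13 mitochondrial genes were called (q under 0.05), where 74.3% of all tested genes were. In the slow condition 15 of 20 cytosolic and 13 of 13 mitochondrial genes were called, where 55.1% of all genes were. The 5 cytosolic genes not called in the slow condition were GLN4 (glutamine, q = 0.0968), GUS1 (glutamate, q = 0.233), MES1 (methionine, q = 0.0654), TYS1 (tyrosine, q = 0.698) and WRS1 (tryptophan, q = 0.0654). A limma F test over time points, which assumes no wave shape, called all 33 genes in both conditions, where 83.8% of all genes were called under fast and 85.1% under slow cycling. Scaled to the control RNAs, the fast rank test called 15 of 20 cytosolic and 9 of 13 mitochondrial genes, where 1470 of all 5820 genes were called. The fast F test, added after the data were seen, then called 4 of 20 and 11 of 13, where 1348 of all genes were called. In the slow condition with this scaling the rank test called 8 of 20 and 13 of 13, where 2551 of all genes were called, and the F test called 20 of 20 and 13 of 13, where 4361 were.

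Of these 5 genes, GUS1 was above the middle of its log2 range at 2 slow time points and the other 4 at 1, which was also the median over all 20 cytosolic genes. TYS1 measured 114, 85.8, 99.0, 98.9, 97.1, 90.5, 86.6, 90.3, 89.3, 95.0, 100.2 and 319 RPKM at slow time points 1 to 12. It stayed between 85.8 and 114 RPKM at the first 11 time points and stood at 319 ± 12.6 RPKM at the last one. GLN4 had the same shape, with 52.7, 33.3, 55.2, 54.0, 53.5, 53.7, 51.7, 53.9, 59.0, 64.7, 61.5 and 162 RPKM. WRS1 measured 44.0, 29.5, 43.6, 42.0, 37.5, 34.8, 38.2, 38.6, 45.6, 49.6, 53.7 and 184 RPKM. The median cytosolic gene was above the middle of its range at 4 of 10 time points in the fast condition against 1 of 12 in the slow one, and in the slow condition a cosine took a median of 29.7% of its variance against 85.2%.

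KRS1, the cytosolic lysine enzyme (YDR037W, chrIV:525440-527215, + strand), had the largest range of all 33 genes in both conditions. In the fast condition it measured 25.2, 7.80, 7.24, 13.6, 20.2, 23.1, 84.1, 141, 57.3 and 43.7 RPKM at time points 1 to 10, a range of 4.10 on the log2(RPKM + 1) scale (17.2-fold). In the slow condition it measured 29.7, 9.75, 15.7, 18.2, 14.6, 14.8, 16.0, 17.9, 20.1, 28.8, 31.1 and 167 RPKM at time points 1 to 12, a range of 3.95 (15.5-fold). Its high values lay in libraries 12 (187 RPKM) and 24 (146 RPKM) of the slow condition, and no other slow library exceeded 40.4 RPKM. The fast rise came earlier in cycle 2, where library 17 (129.96 RPKM) stood above library 18 (121 RPKM), while in cycle 1 library 7 was at 38.2 RPKM and library 8 at 161 RPKM.

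MES1, which charges the initiator and elongator methionine tRNAs, had the next largest range of the cytosolic genes in the fast condition, 3.07 on the log2 scale. It measured 42.8, 17.4, 23.3, 34.4, 45.1, 47.2, 94.2, 155, 85.4 and 73.6 RPKM. MES1 lay between 20.9 and 175 RPKM in the slow condition with a median of 37.2, and only libraries 12 (175) and 24 (145) exceeded 51.2 RPKM. FRS2, the alpha subunit of the phenylalanine enzyme, had the next largest slow range, 3.02. It measured 129.6, 46.5, 66.8, 75.3, 77.4, 71.9, 79.6, 83.7, 86.5, 116, 123 and 384 RPKM in the slow and 90.2, 46.7, 36.5, 64.4, 81.8, 88.4, 193, 297, 194 and 179 RPKM in the fast condition. Its partner subunit FRS1 ranged over 2.48 under fast and 2.59 under slow cycling, with a mean level of 101 ± 61.6 RPKM (SD over 20 libraries) against 127 ± 85.8 for FRS2.

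GUS1, the cytosolic glutamate enzyme, varied least, with ranges of 0.94 (1.91-fold) under fast and 0.72 (1.65-fold) under slow cycling. It measured 217, 185, 139.7, 154, 189.9, 190.1, 226, 265, 268 and 263 RPKM in the fast condition, a plateau over time points 8 to 10 with its highest mean at time point 9. Its slow course was 215, 136, 172, 169, 167, 159.6, 151, 154, 152, 161, 159 and 224 RPKM, and its values at time points 1 and 12 were nearly level. DPS1, the aspartate enzyme, was the next flattest, with ranges of 1.23 and 1.02, and in the slow condition it was above the middle of its range at 7 of 12 time points. The other 17 cytosolic genes besides KRS1 ranged over 1.70 (TYS1) to 3.07 (MES1) in the fast condition and 1.89 (TYS1) to 3.02 (FRS2) in the slow condition. GUS1 and MES1 bind the same cofactor, Arc1, whose gene ARC1 ranged over 1.04 under fast and 0.81 under slow cycling.

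The timing of the cytosolic genes was nearly uniform under the authors' scaling. In each slow cycle taken alone, all 20 were highest at time point 12, where the profile of 35.7% of all genes was highest. The fast maximum of 19 of 20 was at time point 8, against 25.3% of all genes, and GUS1 was highest at time point 9. Libraries 12 and 24 lay above the other 22 slow libraries for 20 of 20 genes, against 27.2% of all genes, and libraries 8 and 18 lay above the other fast libraries for 18 of 20, against 11.1%, with GUS1 and KRS1 as the exceptions. After the maximum the cytosolic genes were at their lowest within 2 to 5 samples, at time point 2 (6 genes) or 3 (14 genes) of the fast cycle, the minimum of 23.4% and 27.5% of all genes, and at time point 2 of the slow cycle for 19, against 36.6%, with FRS1 at time point 7. Under scaling to the control RNAs the slow maximum stayed at time point 12 for 20 of 20 in both cycles, while the fast maximum of the mean of both cycles was at time point 8 for 18 and at time point 6 for 2. Taken alone under that scaling, fast cycle 1 had 13 cytosolic genes highest at time point 9 and 7 at time point 8. Fast cycle 2 had 15 at time point 8 and 5 at time point 6. The share of all genes highest at these points under that scaling is not given here.

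Among the mitochondrial genes, MSF1, the phenylalanine enzyme (YPR047W, chrXVI:657529-658938, + strand), had the largest range, 2.44 on the log2 scale (5.42-fold) under fast and 3.40 (10.6-fold) under slow cycling. It measured 115, 111, 49.9, 24.4, 24.8, 26.8, 22.8, 21.0, 65.8 and 99.6 RPKM at fast time points 1 to 10. At slow time points 1 to 12 it measured 181, 91.1, 45.2, 36.0, 27.8, 24.9, 21.2, 22.3, 24.2, 27.3, 30.3 and 17.7 RPKM. The slow range rests on library 12 (9.93 RPKM), since library 24, the same point of cycle 2, was at 25.6 RPKM. MSK1, the lysine enzyme, had the next largest fast range, 2.23, and measured 138, 121, 56.3, 35.5, 33.4, 31.6, 28.9, 36.5, 93.4 and 129 RPKM. MSE1, the glutamate enzyme, had the next largest slow range, 2.72, and measured 74.7, 29.2, 20.1, 14.9, 13.5, 10.5, 12.1, 12.7, 13.0, 16.8, 16.6 and 27.8 RPKM.

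MSM1, the mitochondrial methionine enzyme, varied least in the fast condition, with a range of 1.35 and values of 51.8, 36.8, 23.7, 20.5, 21.6, 21.6, 20.5, 20.0, 38.0 and 45.3 RPKM. MSR1, the arginine enzyme, varied least in the slow condition, with a range of 1.22 and values of 70.5, 53.8, 40.4, 36.5, 30.3, 29.7, 30.4, 31.2, 29.5, 35.1, 32.9 and 30.6 RPKM. MSM1 and MSR1 were the flattest mitochondrial genes in both conditions. The other 11 ranged over 1.67 (SLM5, asparagine) to 2.44 (MSF1) under fast and 1.98 (NAM2, leucine, also known for a part in intron splicing) to 3.40 (MSF1) under slow cycling.

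In the slow condition all 13 mitochondrial genes were highest at time point 1 in both cycles, where 23.5% of all genes were highest, and libraries 1 and 13 lay above the other 22 libraries for 13 of 13, against 13.7% of all genes. Under fast cycling 11 were highest at time point 1 (13.9% of all genes), while MSE1 and DIA4, the serine enzyme, were highest at time point 10 (13.3% of all genes), and libraries 1 and 11 lay above the other fast libraries for 6 of 13, against 4.05% of all genes. MSE1 measured 54.8 ± 4.52 RPKM at time point 10 and 50.4 ± 6.03 at time point 1, and DIA4 measured 122 ± 2.63 and 106 ± 21.7, differences within or near the spread between cycles. The fast DIA4 course was 106, 91.1, 46.0, 32.3, 32.7, 35.7, 37.3, 31.4, 83.9 and 122 RPKM. With the control RNAs 7 mitochondrial genes were highest at fast time point 1 and 6 at time point 2 in the mean of both cycles. In fast cycle 1 alone 11 were then highest at time point 1 and 2 at time point 10, and in fast cycle 2 all 13 at time point 2. Under median-of-ratios scaling 6 were highest at fast time point 1, 5 at time point 2 and 2 at time point 10 in the mean of both cycles. In fast cycle 2 alone 8 were then highest at time point 2 and 5 at time point 1. Shares over all genes are not given for either of these scalings.

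At slow time point 12, when the cytosolic transcripts were highest, the mitochondrial genes differed among themselves. MSE1, MSK1, MSY1, NAM2 and ISM1 were higher at time point 12 than at time point 11 in both cycles, and the other 8 were lower in 1 of the 2 cycles. MSE1 stood at 27.8 ± 7.27 RPKM at time point 12, 1.68 times its mean at time point 11, and MSY1 (tyrosine) at 1.54 times. MSF1 stood at 0.586 times and MSD1 (aspartate) at 0.792 times, each with the lower value in library 12. All 13 were higher in library 24 than in library 12, by a median ratio of 1.42, and all 13 were higher at time point 2 of cycle 2 than of cycle 1, by a median ratio of 1.46. The cytosolic genes at slow time point 1 were likewise higher in cycle 2 for 20 of 20, by a median ratio of 1.56. In the fast condition 20 of 20 cytosolic genes were higher at time point 7 of cycle 2 than of cycle 1 (median ratio 1.75), and 13 of 13 mitochondrial genes were higher at time points 8 and 9 of cycle 2 (median ratios 1.33 and 1.32). Over all genes the median ratios at these points lay between 0.949 and 1.08, and 2170 to 3583 of 5820 genes were higher in cycle 2. Other points went the other way. At slow time point 11, 0 of 20 cytosolic and 1 of 13 mitochondrial genes were higher in cycle 2 (1578 of all genes). At fast time point 10 these counts were 3 and 3 (2163 of all genes), and at fast time point 9 the cytosolic count was 2.

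Time point 8 was compared with time point 10 in the fast condition and time point 12 with time point 1 in the slow condition. Both comparisons used limma on log2(RPKM + 1). An earlier account of these data had most cytosolic and most mitochondrial ribosomal protein genes highest at these time points. Of the mitochondrial synthetase genes, 11 of 13 were highest at fast time point 1 instead of 10. In the slow condition, where time point 1 follows time point 12 by 36 min, 19 of 20 cytosolic genes were higher at time point 12 and 13 of 13 mitochondrial genes were lower, against 30.3% and 36.7% of all genes called in those directions. The median difference was 1.42 for the cytosolic and -1.53 for the mitochondrial genes, against -0.07 over all genes. KRS1 differed most among the cytosolic genes (2.53 ± 0.26, SE, limma adjusted p = 1.72e-07) and MSF1 among the mitochondrial ones (-3.40 ± 0.32, limma adjusted p = 6.03e-08). GUS1 was not called (0.06 ± 0.09, limma adjusted p = 0.562). The calls were the same 19 and 13 in number without any 1 of libraries 1, 12, 13 and 24. With the control RNAs as the scale the median over all genes shifted up by 0.54. Then 20 cytosolic genes were higher (median 1.99) and 11 mitochondrial genes lower (median -0.99). In either direction 3491 of all 5820 genes were called, against 3898 under the authors' scaling.

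In the fast condition 13 of 20 cytosolic genes were higher at time point 8 than at time point 10, against 13.4% of all genes, and 13 of 13 mitochondrial genes were lower, against 26.1% of all genes. The median difference was 0.62 for the cytosolic genes, from 0.01 (GUS1) to 1.66 (KRS1), and -1.60 for the mitochondrial genes, from -2.23 (MSF1) to -1.10 (MSR1). The difference was positive for 20 of 20 cytosolic and negative for 13 of 13 mitochondrial genes. Another scaling shifts all genes by nearly the same amount, with medians up by 0.02 (control RNAs) and 0.13 (median-of-ratios). The signs were the same under both, but shifts of that size could not have changed them, so this is no test of them. The cytosolic genes that passed were ALA1, CDC60, FRS1, GLN4, ILS1 (isoleucine), KRS1, MES1, SES1 (serine), THS1, TYS1, VAS1 (valine), WRS1 and YDR341C. This count rests on few libraries: it was 1 without library 8, 3 without library 20, and 8 without library 10 or library 18, while the mitochondrial count stayed at 13. With scaling to the control RNAs limma called 0 of 20 and 0 of 13, and 16 genes in all, at an adjusted p under 0.05. At an unadjusted limma p under 0.05 the member counts were 1 and 11, and the share over all genes is not given here. With time point 1 in place of 10, a choice made after the data were seen, 20 of 20 cytosolic genes were higher (24.2% of all genes) and 13 of 13 mitochondrial genes lower (32.3%).

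**Figure D3:**
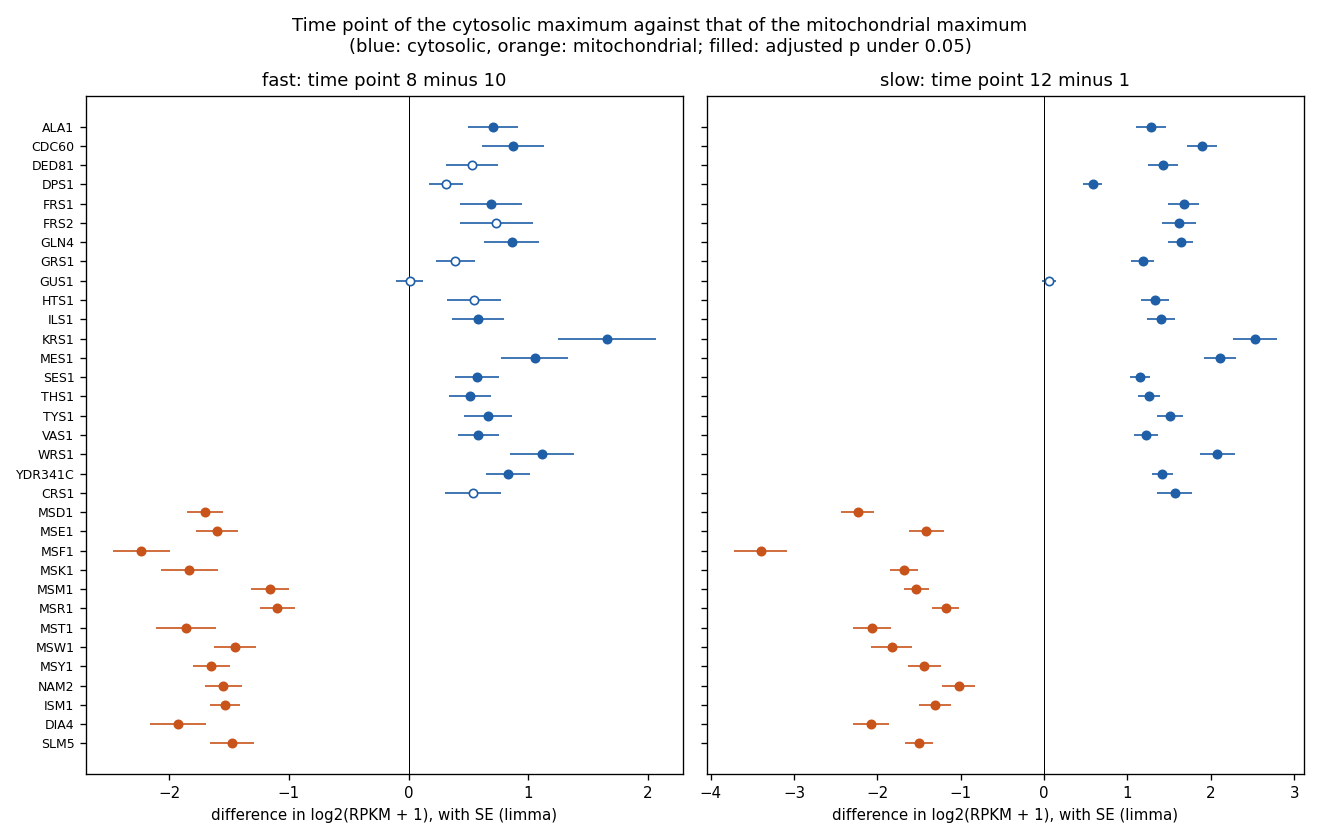
Difference in log2(RPKM + 1) with its SE (limma) for each of the 33 genes, fast time point 8 minus 10 on the left and slow time point 12 minus 1 on the right. Filled points have an adjusted p under 0.05. Cytosolic genes lie between 0.01 and 1.66 (fast) and between 0.06 and 2.53 (slow), and mitochondrial genes lie between -2.23 and -1.10 (fast) and between -3.40 and -1.03 (slow).

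For 13 amino acids both a cytosolic and a mitochondrial gene are among the members. The ratio of their values, which are per length, was followed through the cycle as a description. Ratios at a time point, here and for the single pairs below, are of RPKM + 1, averaged over the 2 cycles on the log2 scale. Counts of libraries with 1 transcript below the other use RPKM itself. The ratio of cytosolic to mitochondrial transcript was highest at fast time point 8 for 12 of 13 pairs and at slow time point 12 for 12 of 13, with the glutamate pair as the exception in both. It was lowest at fast time point 2 for 12 pairs (glutamate at time point 1) and at slow time points 1 or 2 for all 13. Its swing between the highest and lowest time point was 2.00 to 5.74 on the log2 scale in the fast condition (median 3.40) and 2.29 to 5.39 in the slow condition (median 3.23).

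For lysine the order of the transcripts turned over within the cycle. KRS1 was below MSK1 in 16 of 20 fast and 22 of 24 slow libraries, with a ratio from 0.0724 at fast time point 2 to 3.86 at fast time point 8, and from 0.128 to 3.18 in the slow condition. For phenylalanine the ratio of FRS2 to MSF1 went from 0.420 to 13.9 under fast and from 0.537 to 22.5 under slow cycling, and FRS2 was below MSF1 in 6 fast and 3 slow libraries. Leucine (CDC60 and NAM2), methionine (MES1 and MSM1) and tryptophan (WRS1 and MSW1) also crossed, with the cytosolic transcript lower in 3 to 5 libraries of each condition. For aspartate, glutamate, isoleucine, asparagine, arginine and threonine the cytosolic transcript was above the mitochondrial one in all 44 libraries. The glutamate pair swung least, 2.00 and 2.29, with GUS1 at 4.25 to 16.9 times MSE1 over the fast time points. The longest run of bases shared by the coding sequences of a pair was 11 to 16.

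**Figure D4:**
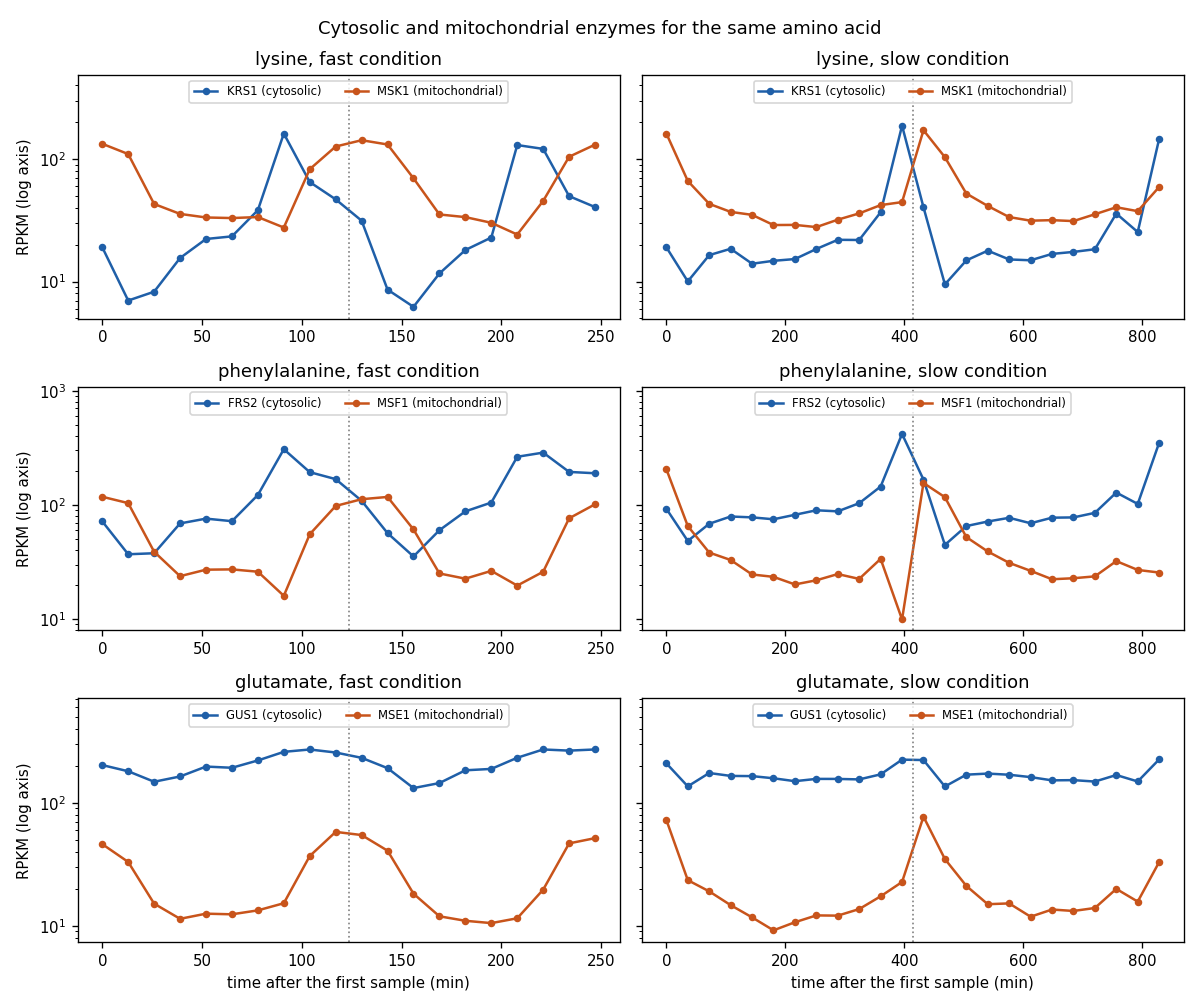
RPKM (log axis) against minutes after the first sample for the lysine, phenylalanine and glutamate pairs, fast condition on the left and slow on the right, 1 point per library. KRS1 and FRS2 cross MSK1 and MSF1 in both conditions, while GUS1 stays above MSE1 in all 44 libraries.

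Within each set the genes moved together, given here as a description since all share the same libraries. The median correlation of log2 values between 2 cytosolic genes was 0.954 over 20 fast and 0.951 over 24 slow libraries, and between 2 mitochondrial genes 0.963 and 0.947. Between a cytosolic and a mitochondrial gene the median was 0.0261 under fast and 0.0879 under slow cycling. The least alike of the cytosolic genes was GUS1 in the fast condition (mean correlation 0.889 with the others) and DPS1 in the slow condition (0.760), and of the mitochondrial genes MSR1 (0.944) and MSF1 (0.90). Class I and class II enzymes, which differ in the fold of the catalytic domain, had median cytosolic ranges of 2.37 and 2.42 in the fast condition and 2.41 and 2.52 in the slow condition. A list of 4 genes known to serve both compartments (ALA1, GRS1, HTS1 and VAS1) followed the cytosolic time, with their maximum at fast time point 8 and slow time point 12 in 4 of 4 and ranges of 2.00 to 2.43 under fast and 2.08 to 2.59 under slow cycling. CRS1, which may serve both compartments too and was not on that list, was highest at the same time points and ranged over 2.64 and 2.69.

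The mean level over the cycle was compared between the conditions with limma on log2(RPKM + 1). Of the cytosolic genes 2 of 20 were higher in the fast condition and none lower, and of the mitochondrial genes 3 of 13 were higher and none lower, against 17.9% of all genes higher and 20.4% lower. None reached a 2-fold difference, which 1.87% of all genes did upward and 2.35% downward. ALA1 averaged 131 ± 68.7 RPKM (SD, 20 libraries) under fast and 90.8 ± 60.8 (SD, 24 libraries) under slow cycling, a difference of 0.51 ± 0.20 (SE, limma adjusted p = 0.0446). GUS1 averaged 209.7 ± 45.3 and 168 ± 25.8 RPKM, a difference of 0.30 ± 0.08 (limma adjusted p = 0.00324). MSM1 differed by 0.41 ± 0.14 (limma adjusted p = 0.0176), MSR1 by 0.32 ± 0.13 (0.0380) and ISM1 by 0.46 ± 0.19 (0.0491). The oscillation counts as spread in this test, so flat genes such as GUS1, MSM1 and MSR1 have small errors. HTS1 (0.53 ± 0.22, limma adjusted p = 0.0582) and MSD1 (0.47 ± 0.21, limma adjusted p = 0.0692) had the largest estimates of their sets and were not called. The ISM1 course in the fast condition was 44.3, 30.8, 17.8, 12.4, 13.6, 12.9, 13.8, 13.5, 28.4 and 40.9 RPKM and in the slow condition 42.3, 23.5, 17.4, 12.9, 11.9, 9.64, 10.2, 10.1, 11.5, 13.5, 13.3 and 16.4 RPKM. The ALA1 course was 138, 74.9, 49.96, 62.1, 93.4, 103, 157, 269, 194 and 165 RPKM under fast and 116, 49.97, 69.8, 74.6, 65.4, 60.8, 63.1, 68.0, 71.3, 86.7, 86.5 and 278 RPKM under slow cycling.

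The estimate was above 0 for 19 of 20 cytosolic genes (median 0.29) and 13 of 13 mitochondrial genes (median 0.41), against 2917 of 5820 genes, and 7 and 6 passed an unadjusted p under 0.05. DPS1 was the exception (-0.06 ± 0.10), and with scaling to the control RNAs its estimate was 0.15. The calls depended on the scaling. With the control RNAs 7 cytosolic and 6 mitochondrial genes were higher. In either direction 1584 of all 5820 genes were then called, against 2225 under the authors' scaling. Use of the control RNAs shifted the median over all genes up by 0.19. Under median-of-ratios scaling 6 and 5 were higher. Without libraries 8, 18 (fast), 12 and 24 (slow) the counts were 8 and 5. For the unadjusted, median-of-ratios and left-out counts no share over all genes is given here.

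**Figure D5:**
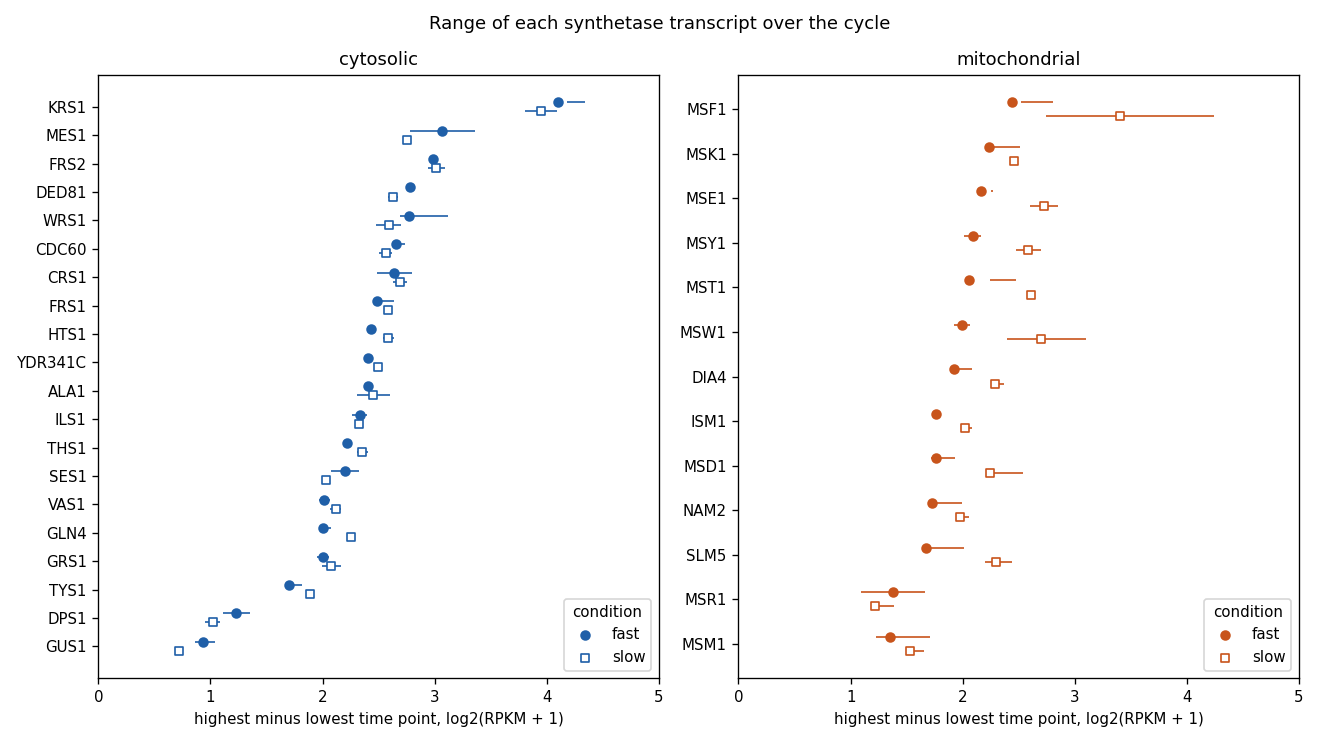
Highest minus lowest time point of the mean of 2 cycles, in log2(RPKM + 1), for each gene in the fast (filled circles) and slow (open squares) condition, where lines join the ranges of the 2 cycles taken alone. KRS1 has the largest values (4.10 and 3.95) and GUS1 the smallest (0.94 and 0.72).

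The size of the oscillation was compared between the conditions in 2 ways, which did not give the same result. The range of a fitted cosine was larger in the fast condition for 20 of 20 cytosolic genes, against 4678 of all 5820 genes, and 15 of the 20 were called by a z test with Benjamini-Hochberg adjustment, against 41.4% of 4796 genes called, and none of the 33 genes was called larger in the slow condition, against 3.73%. For the mitochondrial genes it was larger for 13 of 13 and called for MSK1 alone (2.37 ± 0.21 against 1.57 ± 0.26, SE, a difference of 0.80 ± 0.34, adjusted q = 0.0415). The largest called differences were those of KRS1 (1.70 ± 0.59), MES1 (1.5 ± 0.44), FRS2 (1.24 ± 0.44) and DED81, the asparagine enzyme (1.21 ± 0.39). The difference between the highest and lowest time point, which assumes no wave shape, was larger in the fast condition for 9 of 20 cytosolic genes (median difference -0.04) and for 1 of 13 mitochondrial genes, MSR1 (median -0.48), against 3023 of all 5820 genes. With the control RNAs the z test called 0 of 20 and 0 of 13, and none at an unadjusted p under 0.05. The number called over all genes with this scaling is not given here.

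DED81 measured 173, 92.5, 60.6, 106, 141, 139, 227, 422, 332 and 292 RPKM at fast time points 1 to 10 and 179, 74.0, 114, 116, 106, 105, 112, 121, 124, 151, 145 and 463 RPKM at slow time points 1 to 12. Its highest and lowest points were 6.87-fold apart under fast and 6.19-fold apart under slow cycling, and it was above the middle of its log2 range at 5 of 10 fast and 1 of 12 slow time points.

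Genes that complete the set of charging enzymes were followed from a list of 8. YHR020W, the cytosolic proline enzyme, was highest at fast time point 8 and slow time point 12, ranging over 3.30 and 3.32 in log2 units, and AIM10, the mitochondrial proline enzyme, was highest at time point 1 in both, with ranges of 1.97 and 2.25. HER2 and PET112, subunits of the enzyme that makes glutaminyl-tRNA in mitochondria, were also highest at time point 1 in both, with ranges of 1.54 and 1.98 under fast and 1.82 and 2.19 under slow cycling. GTF1, the remaining subunit, was nearly flat, with ranges of 0.30 and 0.48 at levels of 88.8 ± 7.58 (SD, 20 libraries) and 111 ± 14.2 RPKM (SD, 24 libraries). ARC1, a cofactor of the methionine and glutamate enzymes, was highest at fast time point 8 and slow time point 12. GRS2, a glycine enzyme gene that shares a run of at most 17 bases with GRS1, had its highest means at fast time point 6 and slow time point 11. It was above the middle of its log2 range at 9 of 10 fast and 11 of 12 slow time points. Its lowest means were at fast time point 8 and slow time point 12, where GRS1 was highest. The minimum of 25.2% and 29.4% of all genes was at these points. The rank test did not call GRS2 under fast cycling. FMT1, the formyltransferase of the mitochondrial initiator tRNA, was low, at 3.24 ± 0.913 and 1.46 ± 0.737 RPKM. Of the 8 genes, 5 cycled under fast and 7 under slow cycling by the rank test, against 74.3% and 55.1% of all genes.

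Other genes of the tRNA pathway are given as counts, to be read against 74.3% (fast) and 55.1% (slow) of all genes that cycled by the rank test, and against 25.3% and 35.7% of all genes that were highest at fast time point 8 and slow time point 12. Of 49 genes for tRNA processing and modification, 48 cycled under fast and 36 under slow cycling, and 43 and 42 were highest at time points 8 and 12, with TRM11 ranging over 4.94 and 4.64 and TRM82 over 4.40 and 3.94. Of 18 genes of RNA polymerase III and its factors, 13 and 7 cycled, and 9 and 12 were highest at time points 8 and 12, among them RPC82 and RPC17 with fast ranges of 3.46 and 3.09 and RPC25 and RPC53 with slow ranges of 2.72 and 2.61. A list of 10 genes held translation factors of mitochondria and enzymes that modify mitochondrial tRNAs (MTO1, MSS1 and SLM3). All 10 cycled in both conditions and were highest at slow time point 1 (23.5% of all genes). At fast time point 1 only 4 of 10 were highest (13.9% of all genes), and MTO1 and TUF1 were highest at time point 10. Ranges were 2.36 and 2.95 for MEF1, 2.40 and 2.27 for MTO1, and 2.30 and 2.80 for TUF1. The cytosolic synthetase genes had a smaller median range than the 138 genes of the cytosolic ribosome in both conditions (2.41 against 3.00 under fast, 2.48 against 2.81 under slow cycling), at the same time points. The mitochondrial synthetase genes and 66 genes of the mitochondrial ribosome had medians of 1.93 and 1.82 under fast and 2.30 and 2.12 under slow cycling.

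Gene bodies of 4 cytosolic members overlap a gene on the opposite strand (ALA1, GLN4, ILS1 and MES1, by 81 to 357 bases) and GRS1 overlaps a gene on the same strand by 159 bases. Reads were counted on the sense strand, so the GRS1 value may hold reads of that neighbour.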

How the data were processed

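The authors deposited 1 table of RPKM values (per the file headers, HOMER counted sense-strand reads per gene, on build sacCer3 with SGD genes and 92 control RNA sequences). Per the submitters' processing notes, the tools were TopHat2 2.0.10 and FastQC 0.10.1. How multiply mapped reads were treated is not known here. The length of each gene body was deposited in the same table. Low RPKM values were whole multiples of 1 read (within 0.1) in 100.0% of values checked, which gave the depth, but no count test was used. Per the labels' protocols, RNA was extracted in 4 random groups of samples, whose members are not named, so no within-group values could be given.

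The tests covered 5820 of 6692 yeast genes, those averaging at least 1 RPKM. JTK (own implementation, exact null) used periods of 9, 10 and 11 intervals (fast) and 11, 12 and 13 (slow), with Bonferroni correction over periods and lags. Ranges are of log2(RPKM + 1), which understates changes of low genes; delta-method errors were used for the z test of cosine ranges. Levels, time point contrasts and F tests used limma 3.58.1 with a trend (R 4.3.3), with 1 mean per time point for contrasts. Other work used matplotlib 3.10.9, pandas 2.3.3, scipy 1.17.1 and numpy 2.4.6 under Python 3.11.15. Each test was run on simulated data with independent errors and, for the rank and cosine tests, cosine waves. Courses with 1 high time point were not simulated for the rank and cosine tests, so those runs do not cover the slow shape. Adjusted p-values (q) are over all genes tested, with 0.05 as the threshold. The reference R64 had the same start and end for 6000 of 6008 matched genes and for all 33 members.

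The members, the gene lists, the time points compared and the tests were chosen with earlier results of these data known. Courses are given for the 2 cytosolic and 2 mitochondrial genes with the largest range per condition, the smallest of each set, up to 4 with the largest called differences in level and in range, and those whose call or time of maximum differed from their set. All charging companions are named, and of other lists the 2 genes with the largest range per condition; ribosomal protein genes are given as counts. Alternatives were scaling to the control RNAs, median-of-ratios scaling, other pseudocounts and filters, the F test, left-out libraries and replicate blocks.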

Additional observations from a re-analysis of the deposited data

Results flagged for a closer look

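For 16 of the 33 genes the range of the fitted cosine differed between the conditions by a z test of the difference itself (q under 0.05), each with the larger range in the fast condition. Over all 4796 genes in this test, 41.4% were called larger in the fast and 3.73% larger in the slow condition. The differences, fast minus slow on the log2(RPKM + 1) scale, were 1.7 for KRS1, 1.5 for MES1, 1.24 for FRS2, 1.21 for DED81, 1.2 for CRS1, 1.19 for CDC60, 1.11 for SES1, 1.09 for YDR341C, 1.05 for WRS1, 1.03 for GLN4, 1 for THS1, 0.988 for ILS1, 0.905 for ALA1, 0.574 for DPS1, 0.562 for GUS1 and 0.799 for MSK1, the mitochondrial lysine enzyme. For these genes the difference between the highest and the lowest time point was not larger in the fast condition in 7 of 16 (ALA1, FRS2, GLN4, THS1, YDR341C, CRS1 and MSK1), and a cosine took a smaller share of the variance in the slow condition (median 29.7% over the cytosolic genes) than in the fast one (85.2%). The part of the wave shape in the called differences was not tested.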

How the results depend on the processing

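The spread in every test is that of libraries of 1 culture per condition, and counting error reached 9.58% for the value with fewest reads. The slow contrast kept 19 cytosolic genes higher and 13 mitochondrial genes lower, or 20 and 11, under every alternative run, leave-one-out fits included (19 to 19 and 13 to 13). The fast contrast gave 0 and 0 with the control RNAs, 1 to 8 cytosolic and 13 to 13 mitochondrial genes with 1 library left out, and 20 cytosolic genes with time point 1 as the later point, an alternative added after seeing the data; GUS1 turned to -0.023 without library 18 and to -0.0322 without library 10 (0.0500 without library 20). For level, the cytosolic count of 2 went to 7 (control RNAs), 6 (median-of-ratios) and 8 (without libraries 8, 18, 12 and 24). The mitochondrial count of 3 went to 6, 5 and 5, and DPS1 to 0.145 with the control RNAs. Over all genes the control RNAs gave 1584 calls for level and 3491 for the slow contrast. Cycling in the fast condition went from 4325 genes of all to 1470 by the rank test with the control RNAs and to 1348 by the F test with them, added after seeing the data, which called 4 cytosolic genes. Cycling in the slow condition by the rank test gave 8 (control RNAs), 9 (median-of-ratios) and 9 (without libraries 12 and 24) cytosolic genes. Over all genes these settings called 2551, 3275 and 2985. The slow F test called 20 cytosolic genes and 4951 genes in all. For range, the z test called 0 and 0 with the control RNAs, where TYS1 turned to -0.178, and the highest minus lowest time point was larger in the fast condition for 9 and 1 genes, with -0.0459 for ALA1, -0.0267 for FRS2, -0.248 for GLN4, -0.135 for THS1, -0.0889 for YDR341C, -0.0556 for CRS1 and -0.229 for MSK1. The cause of these changes was not tested. Settings of pseudocount, filter and nominal period moved no count of members by over 1.5 times.

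Library numbers do not pair the conditions: same-numbered fast and slow libraries had correlations of -0.696 to 0.702, above 0.1 in 10 of 20, and 0 of 20 correlated best with their own number. With the time point number as a replicate block the level counts were 2 and 1. With the cycle number as a replicate block the contrasts gave 13 and 13 (fast) and 19 and 13 (slow), and the F test called 20 and 13 members in both conditions, with 4918 (fast) and 5168 (slow) genes in all.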
